A study of Mus musculus with 42 samples.

Results

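The genes described here encode the subunits of the proteasome in mouse liver, together with a few of its assembly chaperones and activators. They were taken by name, as every gene whose symbol begins with Psma, Psmb, Psmc, Psmd or Psme followed by a number in the table that compares lean knockout with lean wildtype mice. Of 42 such names, the immunoproteasome genes Psmb8, Psmb9 and Psmb10 were set aside and described separately, which left 39 members of 19756 gene names in the series. All 39 were listed in each of the 6 deposited tables and had a mean normalized count of at least 5 in each, so no member was lost to the filter on low counts.

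Liver RNA was sequenced from 42 male C57BL/6J mice, 7 in each of 6 groups, with 1 library per mouse. Wildtype (WT) mice and their ChemR23 knockout (KO) littermates, made with CRISPR/Cas9, were fed from 6 weeks of age for 15 weeks either a lean diet with 10% of its energy from lard fat or a high fat diet with 60%. The WT lean, WT obese, KO lean and KO obese mice received vehicle, and the WT obese+RvE1 and KO obese+RvE1 mice received 300 ng of resolvin E1, a lipid mediator that binds ChemR23, by injection on 4 days with harvest on day 5. The knockout was present in every tissue and throughout life, and whole liver was sequenced, so fewer cells of a type and less RNA per cell cannot be told apart.

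Between 15992525 and 43841120 reads per mouse fell on listed genes. Cmklr1, which encodes ChemR23, had normalized counts of 40.8 to 114 in WT lean and 9.72 to 22.6 in KO lean mice, without overlap. The hepatocyte markers summed to 1046000 to 1647000 normalized counts in these 14 livers, and none of the 9 was at 0. Mouse identifiers begin with a number, and mice that share one belonged to a single group for all numbers but 23, and the labels do not say whether it marks a cage or a litter, so mice that share a number may not be independent.

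The proteasome is the protease that degrades ubiquitin-tagged proteins in the cytosol and nucleus. Its 20S core is a barrel of outer alpha rings (Psma genes) around inner beta rings (Psmb genes), of which Psmb5, Psmb6 and Psmb7 encode the proteolytic subunits with chymotrypsin-like, caspase-like and trypsin-like activity. The 19S regulatory particle recognises ubiquitin, unfolds the substrate with a ring of ATPases (Psmc genes) and feeds it into the core, with the non-ATPase subunits (most Psmd genes) forming its base and lid. Psmd5, Psmd9 and Psmd10 encode chaperones that assemble the ATPase ring and leave the finished particle. Psme1, Psme2, Psme3 and Psme4 encode the alternative activators PA28 and PA200. In many cells the subunit genes are transcribed together under Nfe2l1 (NRF1), which binds antioxidant response elements in their promoters.

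The promoter table of RefSeq on GRCm38.p6 held 32 of the 39 members. In the 250 bases before the start of transcription, the core of the antioxidant response element, spelled TGACNNNGC and searched on both strands, was found in 5 of these 32 (15.6%, against 11.5% of the 27025 genes in the table), namely Psmb5, Psmb6, Psmc6, Psmd9 and Psmd12. The letters CCAAT, the box bound by NF-Y, were found on either strand in 12 of 32 (37.5%, against 37.5% of all genes). A match is a description of the sequence and not a site shown to be bound. The stretches of 80 bases below belong to the catalytic genes Psmb5, which passed the test in KO lean against WT lean and in KO obese against KO lean mice, and Psmb6, which passed in no comparison, to the chaperone gene with the largest decrease in obese knockout mice (Psmd9) and to a chaperone gene with CCAAT in place of that motif (Psmd10). They are written 5′ to 3′ on the strand of the gene, lie before the RefSeq start, overlap no GENCODE M21 exon and show the matching letters in capitals. The Psmd9 stretch lies inside the GENCODE span of the gene (123169413 to 123250131), which starts farther upstream than the RefSeq start, and is intronic in that annotation.
Psmb5 (chr14:54618023-54618102, minus strand, TGACNNNGC 47 bases before the start): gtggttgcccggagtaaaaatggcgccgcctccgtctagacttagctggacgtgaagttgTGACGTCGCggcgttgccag
Psmb6 (chr11:70525277-70525356, plus strand, TGACNNNGC 9 bases before the start): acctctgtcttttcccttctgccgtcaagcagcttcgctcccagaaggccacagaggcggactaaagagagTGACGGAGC
Psmd9 (chr5:123228110-123228189, plus strand, TGACNNNGC 31 bases before the start): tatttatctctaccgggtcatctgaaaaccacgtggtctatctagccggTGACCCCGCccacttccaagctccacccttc
Psmd10 (chrX:140956729-140956808, minus strand, CCAAT on the opposite strand 47 and 24 bases before the start): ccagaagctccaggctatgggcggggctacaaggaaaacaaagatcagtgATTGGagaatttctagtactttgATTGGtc

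In WT lean livers, the mean normalized count per kb of exon spanned a wide range, although the complex holds its core subunits in equal numbers. Psma7, an alpha ring subunit, was highest with 1534 ± 315 per kb (SD, n = 7 mice), followed by Psmd8, a lid subunit, with 1469 ± 302 and by Psmb5 with 1194 ± 259. The other catalytic genes had 1105 ± 146 (Psmb6) and 716 ± 114 per kb (Psmb7). At the low end lay the alpha ring genes Psma2, Psma5 and Psma3, with 95.0 ± 19.3, 80.5 ± 15.6 and 72.1 ± 3.25 per kb, and Psme2, which encodes a PA28 subunit, with 70.6 ± 13.6. Among these 38 genes the highest mean was 21.7 times the lowest. The exon length divided by was 2911 bases for Psma2 and 2846 for Psma3, against 1239 for Psma5 and 914 for Psma7. The levels per kb thus depend on the annotated transcripts, and which of them the liver uses was not tested.

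Psma8, an alpha subunit known from the testis, stood apart with 6.15 ± 5.19 per kb and was the only member whose range over mice did not meet that of its neighbour in the order. The other 37 of 38 neighbouring pairs overlapped, so the order is firm only over longer distances. Reads that fit more than 1 gene bear on these levels. Of the 50-base windows of a member's GENCODE transcripts, the median member shared 1.05% with another gene, 15 members shared none and 9 shared over 10%. The highest shares were 54.1% for Psmb5, 50% for Psma5, 28.3% for Psme2 and 24.9% for Psmd9. Levels and fold changes of these genes are therefore uncertain, since the counting could have split or dropped such reads.

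**Figure D1:**
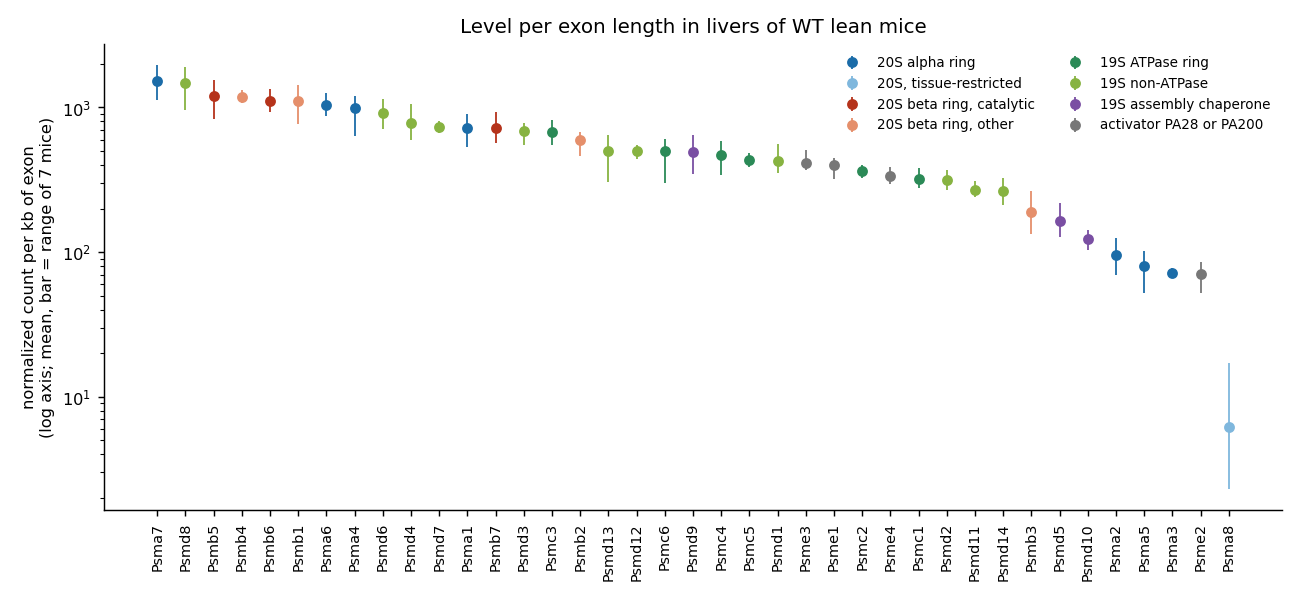
Normalized count per kb of exon (log axis) of the 39 members in WT lean mice, ordered by the mean of 7 mice. Bars span the lowest to the highest mouse and colours mark the role in the complex. Neighbours overlap everywhere except between Psme2 (70.6) and Psma8 (6.15).

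The first comparison set mice without ChemR23 against WT mice on the lean diet. These groups shared no identifier number, so genotype and whatever the number marks cannot be told apart. In KO lean against WT lean mice, 9 of 39 members were higher and 1 lower at an adjusted p under 0.1. When mice with a shared identifier number formed a random block, 0 members and 3 genes in all passed. Of all 13031 genes tested, 8.00% were called higher and 8.30% lower, so the members' share of higher calls was above the background and their share of lower calls below it. The median log2 fold change of the members was 0.10, against 0.00 over all genes (n = 7 mice a group). With every library scaled to the same total instead, the median was -0.017, the opposite sign, where the median of all genes was -0.12. The genes that rose were the alpha ring genes Psma1, Psma4 and Psma7, the catalytic gene Psmb5, the ATPase gene Psmc6, the lid subunits Psmd8 and Psmd13, and the ATPase ring chaperones Psmd5 and Psmd10. Psmd11, a lid subunit, fell. Their log2 fold changes ran from 0.41 to 0.68 for the genes that rose and stood at -0.39 for Psmd11.

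In the alpha ring, 3 of 7 genes rose. Psma4, on chromosome 9 of GRCm38 from 54950790 to 54958030, had normalized counts of 743 to 1389 with a median of 1148 in WT lean and of 1126 to 2507 with a median of 1715 in KO lean mice. All but 1 of the 7 KO livers exceeded the WT range, although the groups overlapped. The log2 fold change was 0.62 (SE 0.17, BH-adjusted p = 0.0476). Psma7, on chromosome 2 from 180036374 to 180042433, ranged from 1028 to 1792 (median 1470) in WT lean and from 1251 to 2566 (median 2239) in KO lean mice, for a log2 fold change of 0.56 (SE 0.17, BH-adjusted p = 0.0564). Psma3 went against this direction. It had 192 to 220 normalized counts in WT lean and 162 to 192 in KO lean mice, the only member without overlap between the groups (0.744% of all genes had none), and its log2 fold change of -0.18 (SE 0.08) did not pass the test (adjusted p = 0.182).

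Of the 3 catalytic genes, Psmb5 rose and the other two did not pass the test. Psmb5, on chromosome 14 from 54614119 to 54618022, had normalized counts of 754 to 1404 (median 1083) in WT lean and of 1047 to 1941 (median 1763) in KO lean mice. Of the KO livers, 5 exceeded the WT range. Its log2 fold change was 0.57 (SE 0.16, BH-adjusted p = 0.0508). Some of the Psmb5 reads may belong to Gm3375, with which 46.8% of its windows are shared. Psmb6, on chromosome 11 from 70525367 to 70527858, ranged from 738 to 1065 (median 860) in WT lean and from 656 to 984 (median 760) in KO lean mice, with a log2 fold change of -0.16 (SE 0.11, BH-adjusted p = 0.384). Psmb7, on chromosome 2 from 38588036 to 38644087, ranged from 661 to 1074 (median 779) in WT lean and from 666 to 1435 (median 806) in KO lean mice, with a log2 fold change of 0.10 (SE 0.17, BH-adjusted p = 0.746).

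None of the 4 other beta ring genes passed the test. Psmb1, with the smallest p among them, had 1342 to 2495 normalized counts (median 1894) in WT lean and 1824 to 2947 (median 2136) in KO lean mice, for a log2 fold change of 0.22 (SE 0.14, BH-adjusted p = 0.319). Psma8 was low in both groups, from 3.89 to 29.0 (median 7.69) in WT lean and from 6.48 to 34.4 (median 14.6) in KO lean mice, with a log2 fold change of 0.76 (SE 0.40, BH-adjusted p = 0.239).

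In the 19S particle, 1 of 6 ATPase genes rose and the median of the 6 was 0.00. Psmc6, on chromosome 14 from 45329788 to 45349705, had 674 to 1344 normalized counts (median 1136) in WT lean and 1159 to 2276 (median 1862) in KO lean mice, for a log2 fold change of 0.63 (SE 0.18, BH-adjusted p = 0.0509). Of the 11 non-ATPase genes, 2 rose, 1 fell and 8 did not pass the test. Psmd13, on chromosome 7 from 140881968 to 140898643, had the smallest p of all members. It ranged from 604 to 1290 (median 962) in WT lean and from 924 to 2034 (median 1694) in KO lean mice, and 6 of 7 KO livers exceeded the WT range. Its log2 fold change was 0.68 (SE 0.18, BH-adjusted p = 0.0461). Some of its reads may belong to Sirt3, with which 7.88% of its windows are shared. Psmd11, on chromosome 11 from 80428615 to 80473248, ranged from 683 to 889 (median 747) in WT lean and from 455 to 751 (median 619) in KO lean mice, where 6 of 7 lay below the lowest WT mouse. Its log2 fold change was -0.39 (SE 0.12, BH-adjusted p = 0.059).

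Of the 3 ATPase ring chaperones, Psmd5 and Psmd10 rose. Psmd10, which encodes gankyrin, on chromosome X from 140948429 to 140956728, had 152 to 210 normalized counts (median 182) in WT lean and 177 to 311 (median 251) in KO lean mice, with 6 KO livers above the WT range and a log2 fold change of 0.47 (SE 0.13, BH-adjusted p = 0.0482). Psmd9 had a log2 fold change of 0.10 (adjusted p = 0.683). None of the 4 activator genes passed the test. Psme2 had 51.0 to 83.9 normalized counts (median 70.3) in WT lean and 56.96 to 106 (median 79.8) in KO lean mice, for a log2 fold change of 0.19 (SE 0.16, BH-adjusted p = 0.458). With a fold change above 1.5 also required, 3 members were left (Psma4, Psmc6 and Psmd13), where 6.65% of all genes passed.

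The number of members called depended on single mice and on the treatment of shared identifier numbers. With mice of a shared number as a random block no member passed in this comparison (Psmd13, adjusted p = 0.146), against 0.023% of all genes. Without WT lean mouse 26R or KO lean mouse 9L no member passed either. The share of all genes called in those fits is not given here. When gene length and GC content were regressed out of every library, 5 members were higher and 5 lower, and the median was 0.01. In either direction 25.6% of the members were called, against 11.7% of all genes. Other measures moved with the groups. All 9 Kupffer cell markers tested were higher in KO lean mice (median log2 fold change 0.98), and their summed level was 4455 to 9302 in WT lean and 10220 to 21490 in KO lean mice, with none at 0. Of 4 lymphocyte markers tested 2 were higher, with sums of 21.9 to 62.7 in WT lean and 47.5 to 120 in KO lean mice. In each library, the rank correlation across genes between the deviation from the mean of the 14 mice and exon length ran from -0.03 to 0.29 in WT lean and from -0.45 to 0.18 in KO lean mice. The part of these in the result was not tested.

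**Figure D2:**
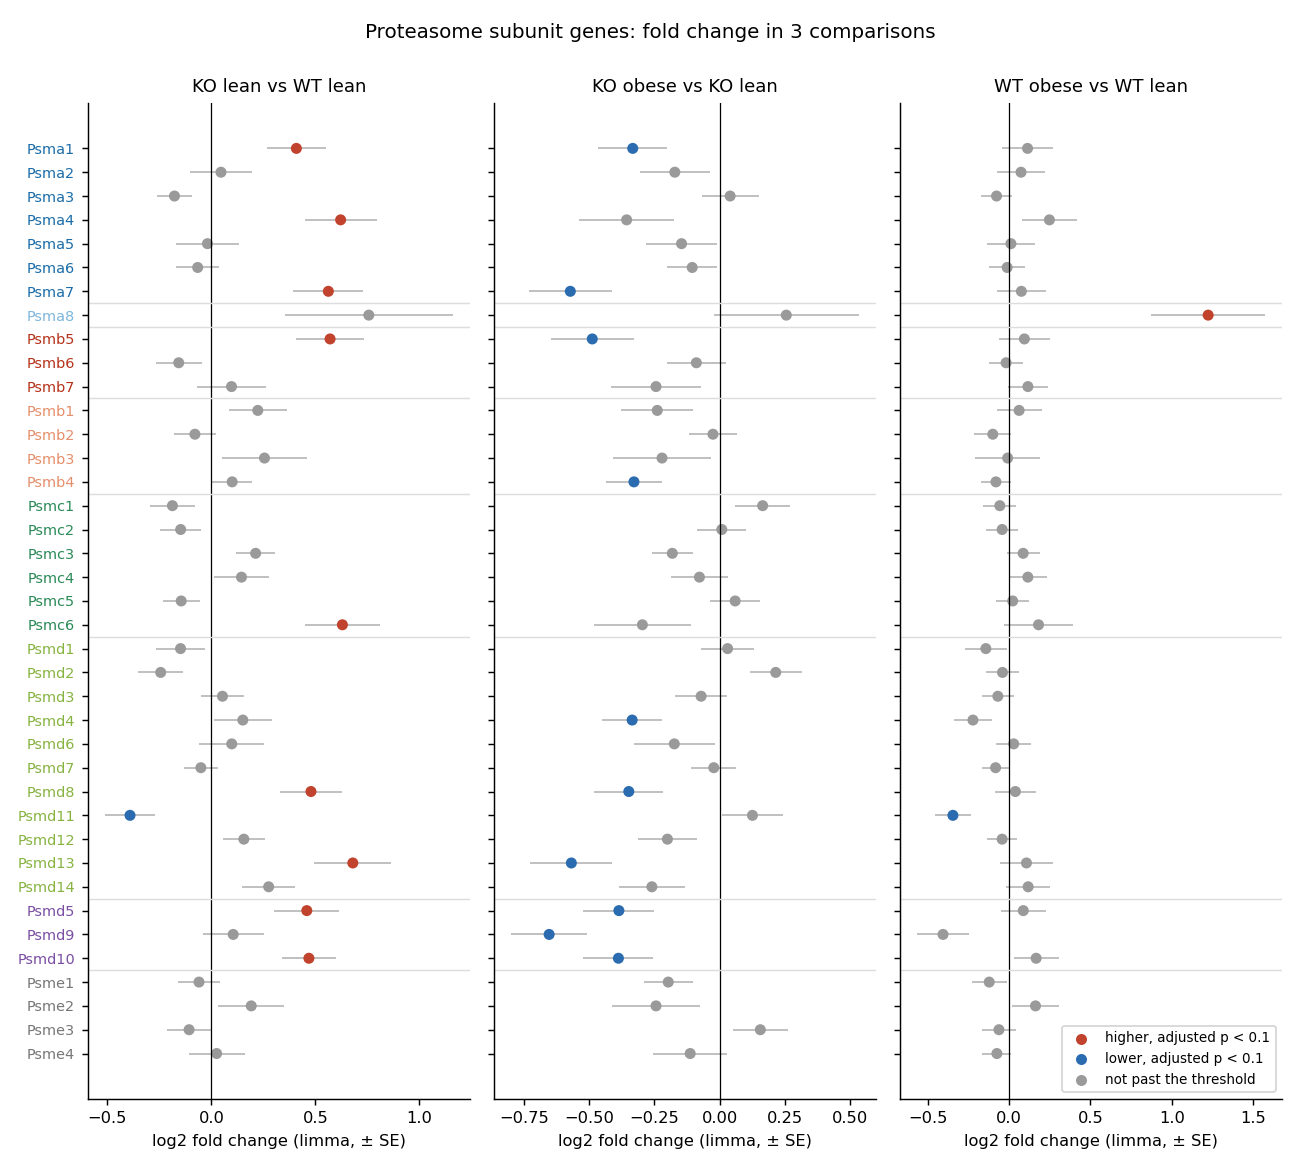
Log2 fold change with SE (limma) of the 39 members in KO lean vs WT lean, KO obese vs KO lean and WT obese vs WT lean mice, ordered by role, with label colours as in the plot of levels. Red and blue points passed an adjusted p of 0.1. In KO lean vs WT lean 9 points are red and 1 is blue, in KO obese vs KO lean 10 are blue, and in WT obese vs WT lean 1 is red and 1 is blue. The horizontal scales differ between panels.

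The effect of the high fat diet in knockout mice ran the other way. In KO obese against KO lean mice, 10 of 39 members were lower and 0 higher, where 12.1% of the 14213 genes tested were called lower and 12.0% higher. In either direction 25.6% of the members and 24.1% of all genes were called, so the share called was near the background, with all members' calls on the lower side. At an unadjusted p under 0.05 there were 12 members (30.8%, against 32.0% of all genes). With shared numbers as a random block 1 member passed (2.56%, against 7.44% of all genes). With every library scaled to the same total 1 was higher and 2 lower (7.69%, against 22.4% of all genes). The median was then -0.0345 where all genes had 0.14. The median log2 fold change of the members was -0.18, against 0.00 over all genes (n = 7 mice a group). The genes that fell were Psma1 and Psma7 of the alpha ring, Psmb4 and Psmb5 of the beta ring, the 19S subunits Psmd4, Psmd8 and Psmd13, and all 3 ATPase ring chaperones. This comparison shares the KO lean mice with the one before it, so genes that were high in those 7 mice move in both.

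In the alpha ring, 2 of 7 genes fell. Psma7 had 1373 to 2830 normalized counts (median 2467) in KO lean and 1289 to 1997 (median 1356) in KO obese mice, and 4 of 7 KO obese mice lay below the lowest KO lean mouse. Its log2 fold change was -0.57 (SE 0.16, BH-adjusted p = 0.0265). Among the catalytic genes, Psmb5 fell from 1149 to 2139 (median 1942) in KO lean to 946 to 1618 (median 1241) in KO obese mice, for a log2 fold change of -0.49 (SE 0.16, BH-adjusted p = 0.0492). Psmb6 ranged from 722 to 1083 (median 835) in KO lean and from 689 to 1009 (median 772) in KO obese mice, with a log2 fold change of -0.09 (SE 0.11, BH-adjusted p = 0.626). Psmb7 ranged from 731 to 1580 (median 887) in KO lean and from 655 to 1104 (median 777) in KO obese mice, with a log2 fold change of -0.24 (SE 0.17, BH-adjusted p = 0.348). The groups overlapped for every catalytic gene.

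Psmb4 was the 1 other beta ring gene of 4 that fell, from 1342 to 1961 (median 1709) in KO lean to 1129 to 1695 (median 1304) in KO obese mice, for a log2 fold change of -0.33 (SE 0.11, BH-adjusted p = 0.05). Psma8 had 7.13 to 37.8 normalized counts (median 16.1) in KO lean and 14.4 to 26.4 (median 18.8) in KO obese mice, for a log2 fold change of 0.26 (SE 0.28, BH-adjusted p = 0.563). None of the 6 ATPase genes passed the test. Psmc3, with the smallest p among them, ranged from 1310 to 1535 (median 1388) in KO lean and from 1137 to 1366 (median 1231) in KO obese mice, with a log2 fold change of -0.18 (SE 0.08, BH-adjusted p = 0.126).

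Of the 11 non-ATPase genes 3 fell. Psmd13 had 1014 to 2241 normalized counts (median 1866) in KO lean and 927 to 1399 (median 1195) in KO obese mice, for a log2 fold change of -0.57 (SE 0.16, BH-adjusted p = 0.0263), and only 1 KO obese mouse lay below the KO lean range. Psmd4, a ubiquitin receptor of the 19S particle, had a log2 fold change of -0.34 (SE 0.12, BH-adjusted p = 0.0605).

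The chaperone Psmd9 had the smallest p and the largest decrease of all members. Its normalized counts were 1215 to 1904 (median 1378) in KO lean and 761 to 1519 (median 882) in KO obese mice, and 6 of 7 KO obese mice lay below the lowest KO lean mouse, the exception being mouse 23L with 1519. The log2 fold change was -0.65 (SE 0.14, BH-adjusted p = 0.0111). It was the only member called with a fold change above 1.5, where 10.4% of all genes passed, and the only one that still passed when mice with a shared number formed a random block (adjusted p = 0.0669). Some of the Psmd9 reads may belong to Gm26745, with which 24.7% of its windows are shared. Psmd5 and Psmd10 fell as well, both with a log2 fold change of -0.39 (SE 0.14 and 0.13, BH-adjusted p = 0.065 and 0.0604). None of the 4 activator genes passed the test. Psme1 ranged from 404 to 529 (median 485) in KO lean and from 361 to 472 (median 416) in KO obese mice, with a log2 fold change of -0.20 (SE 0.09, BH-adjusted p = 0.162).

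After the same correction for length and GC content, 5 members were lower (Psma7, Psmd5, Psmd9, Psmd10 and Psmd13). That was 12.8% of the members, against 22.1% of all genes called in either direction. The members' median was -0.05. Without KO lean mouse 9L 4 members passed, and the share of all genes in that fit is not given here. The correlation of deviation with exon length ran from -0.42 to 0.16 in KO lean and from -0.08 to 0.36 in KO obese mice. Of 9 Kupffer cell markers 8 were lower in KO obese mice (median -0.90), with summed levels of 11270 to 23690 in KO lean and 6251 to 8710 in KO obese mice. Of 8 lymphocyte markers tested 6 were lower, with sums of 91.8 to 157 and 31.8 to 86.2. The part of these in the result was not tested. Genes of other large complexes were called too, where 12.1% of all genes were lower and 12.0% higher. Of 75 ribosomal protein genes 27 were lower and 1 higher (median -0.26), and of 36 genes of respiratory complex I 8 were lower and 1 higher (median -0.17). In KO lean against WT lean mice 8.00% of all genes were higher and 8.30% lower. The counts there were 8 higher and 3 lower (median -0.05) for ribosomal protein genes and 11 higher and 1 lower (median 0.13) for complex I genes. The ribosomal median there had the opposite sign to the members' median of 0.10.

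**Figure D3:**
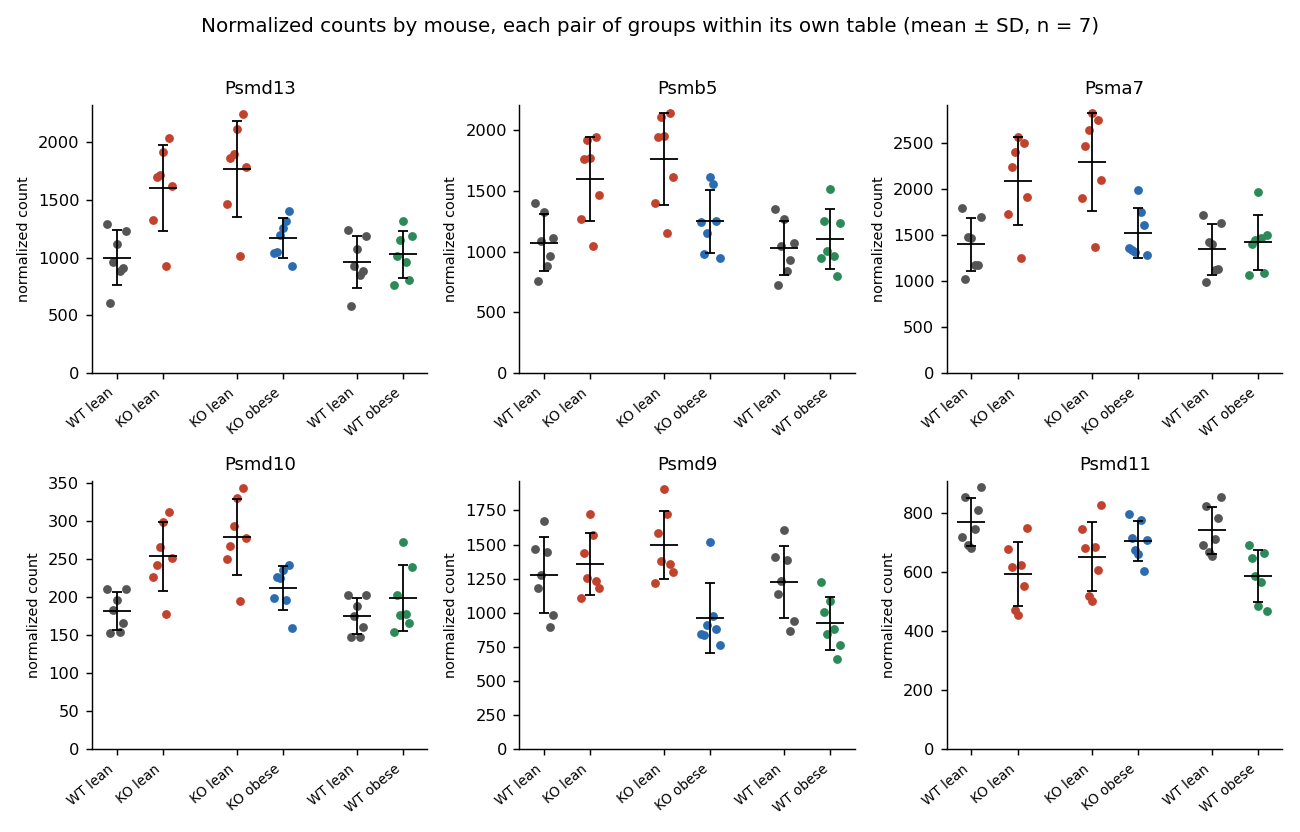
Normalized counts of 6 members in single mice (points, with mean ± SD, n = 7), drawn for 3 tables that were each normalized on their own, so levels compare only within a pair. The same WT lean mice serve in both pairs with WT lean, and the same KO lean mice in both pairs with KO lean. Psmd13, Psmb5, Psma7 and Psmd10 are higher in KO lean than in WT lean and KO obese mice, Psmd9 is lower in KO obese mice apart from 1 mouse at 1519, and Psmd11 is lower in KO lean and WT obese than in WT lean mice, with overlap in every pair.

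In WT mice few members passed the test for diet. In WT obese against WT lean mice, 1 member was higher and 1 lower, where 3.65% of the 14012 genes tested were called higher and 2.61% lower, and 3 members had an unadjusted p under 0.05 (7.69%, against 18.2% of all genes). The median log2 fold change was 0.01, against 0.00 over all genes. Psma8 rose from 3.72 to 27.9 (median 7.45) normalized counts in WT lean to 15.0 to 27.8 (median 20.4) in WT obese mice, for a log2 fold change of 1.22 (SE 0.35, BH-adjusted p = 0.0682). The WT lean mouse 8RL reached 27.9, above every WT obese mouse, and the other 6 lean mice lay at or below 12.2. Psma8 was the only member called with a fold change above 1.5, where 3.80% of all genes passed. The edgeR test on the recovered reads did not call it.

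Psmd11 fell from 655 to 854 (median 715) in WT lean to 468 to 693 (median 588) in WT obese mice, where 5 of 7 lay below the lowest WT lean mouse. Its log2 fold change was -0.34 (SE 0.11, BH-adjusted p = 0.0971). The same 7 WT lean mice served in KO lean against WT lean, so the decreases of Psmd11 there and here are not independent. Psmd9 had 868 to 1605 (median 1230) in WT lean and 660 to 1223 (median 879) in WT obese mice, for a log2 fold change of -0.41 (SE 0.16) that did not pass the test (adjusted p = 0.175). Neither call, for Psma8 or for Psmd11, held with shared numbers as a random block (adjusted p = 0.203 for Psma8 and 0.331 for Psmd11). The Psmd11 call was lost in 7 of 12 other settings and in 11 of 14 fits that left out 1 mouse. The Psma8 call was lost in 3 of the 12 settings and in 5 of the 14 fits.

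The catalytic genes did not pass the test in WT mice. Psmb5 had 727 to 1350 (median 1043) in WT lean and 799 to 1517 (median 1001) in WT obese mice, for a log2 fold change of 0.09 (SE 0.16, BH-adjusted p = 0.8). Psmb6 had 714 to 1022 (median 823) and 734 to 1055 (median 814), for a log2 fold change of -0.02 (SE 0.10, BH-adjusted p = 0.955). Psmb7 had 637 to 1031 (median 749) and 703 to 1152 (median 878), for a log2 fold change of 0.12 (SE 0.12, BH-adjusted p = 0.668). In the remaining roles the members with the smallest p were Psma4 (log2 fold change 0.25, SE 0.17, adjusted p = 0.469), Psmb4 (-0.08, SE 0.09, BH-adjusted p = 0.693), Psmc4 (0.12, SE 0.12, BH-adjusted p = 0.651) and Psme1 (-0.12, SE 0.11, BH-adjusted p = 0.594).

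Psma4 ranged from 716 to 1332 (median 1105) normalized counts in WT lean and from 877 to 1949 (median 1328) in WT obese mice. Psmb4 ranged from 1226 to 1507 (median 1305) and from 1079 to 1478 (median 1262) in the same groups. Psmc4 ranged from 470 to 816 (median 650) and from 629 to 787 (median 685), and Psme1 from 342 to 483 (median 444) and from 333 to 471 (median 391). The groups overlapped for all 4 genes.

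The interaction of diet and genotype tested whether the diet effect differed between KO and WT mice. With limma no member passed, where 0.00718% of the 13924 genes tested did (1 gene), and 11 members had an unadjusted p under 0.05 (28.2%, against 18.3% of all genes). The median difference of the log2 fold changes, KO minus WT, was -0.20 over the members and -0.01 over all genes (28 mice). The smallest p belonged to Psmd11 (difference 0.47, SE 0.16, adjusted p = 0.143), followed by Psmd10 (-0.55, SE 0.19, BH-adjusted p = 0.147), Psmd13 (-0.68, SE 0.23, BH-adjusted p = 0.15) and Psma7 (-0.65, SE 0.22, BH-adjusted p = 0.15). Of the catalytic genes, Psmb5 differed by -0.58 (SE 0.23, BH-adjusted p = 0.182), Psmb6 by -0.07 (SE 0.15, BH-adjusted p = 0.845) and Psmb7 by -0.36 (SE 0.21, BH-adjusted p = 0.378). In the other roles the smallest p belonged to Psma8 (-0.97, SE 0.45), Psmb4 (-0.25, SE 0.13), Psmc3 (-0.27, SE 0.12) and Psme2 (-0.41, SE 0.22), with adjusted p from 0.224 to 0.317.

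The count depended on the model. With library quality weights 12 members passed (30.8%, against 18.4% of all genes), 11 of them with a lower effect in KO mice. With DESeq2 on the recovered reads 4 passed (Psma7, Psmd10, Psmd11 and Psmd13, or 10.3%, against 6.64% of all genes), while edgeR called 0. With the length and GC correction the median difference was -0.03. In KO obese against KO lean mice 10 of 39 members were called, all lower, a share near that of all genes (25.6% against 24.1%). The main test did not show the members' diet effect to differ between KO and WT mice.

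Between the obese genotypes no member passed the test. In KO obese against WT obese mice, 0 of 39 members passed with limma, edgeR or DESeq2. By limma, 1 had an unadjusted p under 0.05 (2.56%, against 2.25% of all genes). Of the 14162 genes tested, limma and edgeR each called 2 genes (0.0141%) and DESeq2 3 genes (0.0212%). The median log2 fold change was -0.05, against 0.00 over all genes. The catalytic genes Psmb6 and Psmb7 had the smallest p of the members. Psmb6 ranged from 805 to 1165 (median 896) in WT obese and from 664 to 966 (median 744) in KO obese mice, with a log2 fold change of -0.23 (SE 0.10, unadjusted p = 0.0444, adjusted p = 1 by limma). Psmb7 ranged from 771 to 1272 (median 971) and from 631 to 1057 (median 757), with a log2 fold change of -0.26 (SE 0.13, BH-adjusted p = 1). Psmb5 ranged from 876 to 1669 (median 1106) and from 910 to 1552 (median 1204), with a log2 fold change of -0.01 (SE 0.15, BH-adjusted p = 1).

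For the other roles, the members with the smallest p between the obese genotypes had log2 fold changes of -0.16 (Psma6, SE 0.10), -0.15 (Psmb4, SE 0.10), -0.22 (Psma8, SE 0.19), -0.09 (Psmc2, SE 0.09), -0.10 (Psmd6, SE 0.10), -0.14 (Psmd9, SE 0.16) and -0.21 (Psme2, SE 0.16), all with an adjusted p of 1. Their groups overlapped in each case. Psma6, for example, had 1018 to 1629 normalized counts (median 1257) in WT obese and 993 to 1281 (median 1105) in KO obese mice.

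No member passed the test for RvE1 either. In WT obese mice, RvE1 against vehicle gave 0 of 39 members called by limma, edgeR and DESeq2. By limma, 4 members had an unadjusted p under 0.05 (10.3%, against 6.08% of all genes). Of the 13085 genes tested, limma called 0%, edgeR 1 gene and DESeq2 25 genes (0.191%). The median log2 fold change of the members was 0.07, against 0.00 over all genes. Psmd3, a lid subunit, had 1341 to 1765 normalized counts (median 1631) in WT obese and 1655 to 2039 (median 1903) in WT obese+RvE1 mice, where 6 of 7 lay above the vehicle range. Its log2 fold change was 0.24 (SE 0.08, BH-adjusted p = 0.772). Psmb5 ranged from 936 to 1780 (median 1181) with vehicle and from 1151 to 1786 (median 1400) with RvE1, for a log2 fold change of 0.15 (SE 0.14, BH-adjusted p = 0.955). Psmb6 ranged from 860 to 1238 (median 956) and from 724 to 1008 (median 858), for a log2 fold change of -0.19 (SE 0.10, BH-adjusted p = 0.859). Psmb7 ranged from 824 to 1351 (median 1036) and from 728 to 986 (median 944), for a log2 fold change of -0.17 (SE 0.11, BH-adjusted p = 0.917).

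In the other roles, the members with the smallest p under RvE1 in WT obese mice were Psma6 (log2 fold change -0.14, SE 0.10), Psmb2 (0.17, SE 0.10), Psma8 (-0.30, SE 0.23), Psmc1 (0.21, SE 0.09), Psmd5 (0.14, SE 0.12) and Psme3 (0.19, SE 0.10), with adjusted p from 0.786 to 0.943. Psmc1, an ATPase gene, ranged from 484 to 652 (median 563) with vehicle and from 586 to 716 (median 603) with RvE1.

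In KO obese mice, which lack the receptor, RvE1 against vehicle also gave 0 of 39 members called by limma, edgeR and DESeq2. By limma, 2 members had an unadjusted p under 0.05 (5.13%, against 8.30% of all genes). Of the 14207 genes tested, limma and edgeR called 0% and DESeq2 17 genes (0.12%). The median log2 fold change was 0.02, against -0.01 over all genes. Psmd3 ranged from 1335 to 1822 (median 1639) with vehicle and from 1676 to 2104 (median 1854) with RvE1, for a log2 fold change of 0.20 (SE 0.09, BH-adjusted p = 0.584). Psme4, which encodes PA200, ranged from 1946 to 2671 (median 2144) and from 1674 to 2321 (median 1901), for a log2 fold change of -0.24 (SE 0.11, BH-adjusted p = 0.579). Psmb5 ranged from 954 to 1631 (median 1260) and from 623 to 2232 (median 1449), with a log2 fold change of 0.02 (SE 0.25, BH-adjusted p = 0.993). The spread of Psmb5 was thus wider with RvE1 than with vehicle on both sides.

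Psmb6 had log2 fold changes of 0.06 (SE 0.17, BH-adjusted p = 0.93) and Psmb7 of -0.06 (SE 0.16, BH-adjusted p = 0.933) in these mice. In the other roles the smallest p belonged to Psma7 (0.14, SE 0.24), Psmb3 (-0.27, SE 0.23), Psma8 (-0.28, SE 0.30), Psmc4 (0.24, SE 0.12) and Psmd5 (0.21, SE 0.14), with adjusted p from 0.604 to 0.877. The interaction of RvE1 and genotype called no member with limma, edgeR or DESeq2, where 0% of 13059 genes passed, and 0 members had an unadjusted p under 0.05, against 2.38% of all genes. The median difference was 0.00 over the members and -0.02 over all genes, and every member's adjusted p was 1 with limma. The difference, KO minus WT, was -0.14 for Psmb5 (SE 0.30), 0.26 for Psmb6 (SE 0.20) and 0.11 for Psmb7 (SE 0.20). The smallest p belonged to Psmd2, a scaffold subunit of the 19S base (-0.22, SE 0.12), Psme2 (0.41, SE 0.21) and Psmb3 (-0.53, SE 0.30).

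In each mouse, the median deviation of the 39 members from the mean of the 14 mice of its table gives their common level. In KO lean mice it ran from -0.10 to 0.21 (median 0.09) and in WT lean mice from -0.24 to 0.13 (median -0.09), with overlap. In the table of KO obese and KO lean mice it ran from -0.21 to 0.14 (median -0.12) in KO obese and from -0.07 to 0.22 (median 0.10) in KO lean mice. The widest spread was in KO obese+RvE1 mice, from -0.36 in mouse 12-2L and -0.34 in mouse 23RL to 0.28 in mouse 12L. In the same 3 mice the correlation of deviation with exon length was 0.34, 0.38 and -0.41. Its part in this spread was not tested.

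**Figure D4:**
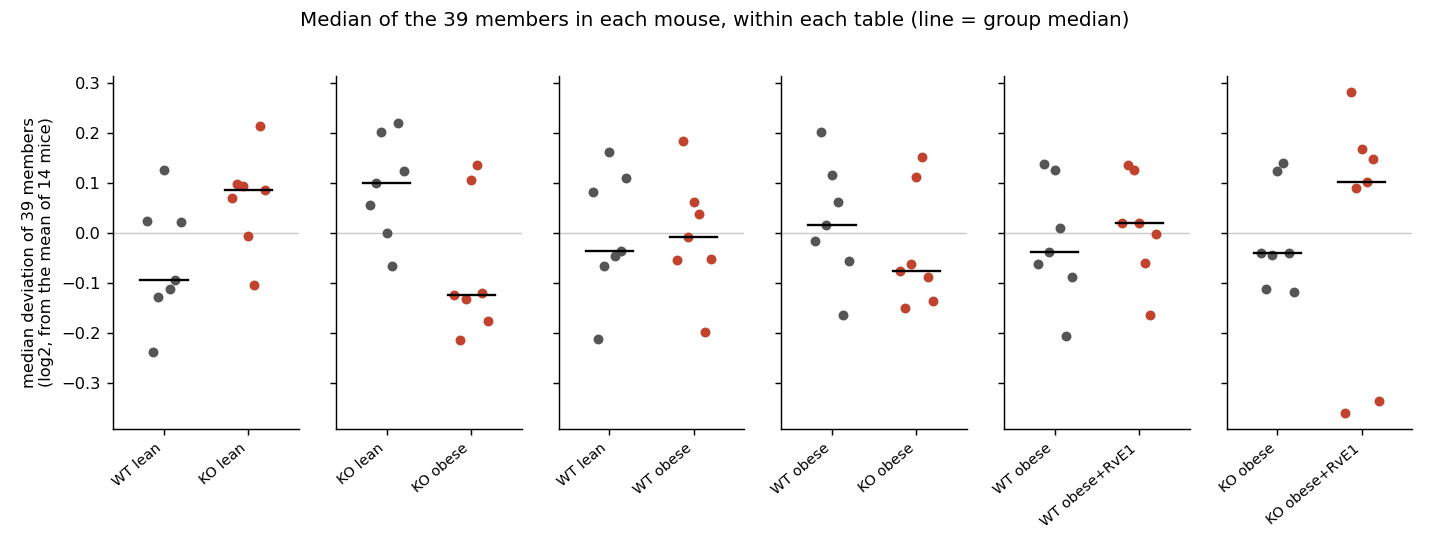
Median log2 deviation of the 39 members in each mouse (points) from the mean of the 14 mice in its table, with group medians as lines, for the 6 comparisons. KO lean mice lie mostly above WT lean and KO obese mice, and 2 KO obese+RvE1 mice lie at -0.36 and -0.34, below the other 5.

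The members tended to vary together within groups, to a degree that differed between tables. Over the 14 mice of a table, after group means were removed, the median correlation over the 741 pairs of members ran from 0.13 in the lean table to 0.49 in the table of KO obese+RvE1 and KO obese mice. Between members and all other genes the median lay between -0.03 and 0.00 in every table. These values describe the libraries, since all points share library, depth and scaling. In the WT diet table the highest median correlations with the other members were those of Psmb7 (0.61), Psme4 (0.59), Psma2 (0.56), Psmd12 (0.55), Psmd13 (0.54) and Psmb1 (0.53). Psmd11 was below 0 in all 6 tables, from -0.54 in the KO RvE1 table to -0.00, close to no correlation, in the WT RvE1 table. Psme3 was below 0 in every table except the WT diet table (0.14), and several other members were in some tables. Psmd1, the large scaffold subunit of the base, reached -0.56 in the KO RvE1 table.

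Some genes that build or regulate the proteasome passed the test as well. Of all related genes called, only Rps27a in KO obese against KO lean mice still passed with shared numbers as a block. Of the immunoproteasome genes, which encode the interferon-induced replacements of the catalytic subunits, Psmb9 rose in KO lean mice, from 116 to 340 (median 257) in WT lean to 261 to 613 (median 375), for a log2 fold change of 0.84 (SE 0.24, BH-adjusted p = 0.0488). Psmb8 and Psmb10 had log2 fold changes of 0.06 and 0.03 there (adjusted p = 0.805 and 0.929). None of the 3 passed in KO obese against KO lean mice (Psmb9 -0.32, adjusted p = 0.29) or in WT obese against WT lean mice (Psmb9 0.71, adjusted p = 0.11). Of 12 interferon response genes tested in KO lean against WT lean mice, 2 were higher and 0 lower.

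Among the core assembly genes, Psmg3, a chaperone of the alpha ring, rose in KO lean mice with a log2 fold change of 0.60 (SE 0.16, BH-adjusted p = 0.0471) and fell in KO obese against KO lean mice (-0.56, SE 0.17, BH-adjusted p = 0.0352). Its partner Psmg4 fell in the latter (-0.33, adjusted p = 0.0906). Pomp, the maturation factor of the beta ring, did not pass in any comparison, with log2 fold changes from -0.19 to 0.15. Shfm1, which encodes a small 19S lid subunit, rose in KO lean mice (0.49, SE 0.17, BH-adjusted p = 0.0834) and fell in KO obese against KO lean mice (-0.52, SE 0.18, BH-adjusted p = 0.0603). Among these lists 1 of 6 core assembly genes and 1 of 10 proteasome-bound genes passed in KO lean against WT lean mice, both higher. Over all 38 related genes tested there 6 passed (15.8%, near the 16.3% of all genes in either direction).

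Rps27a, which encodes ubiquitin fused to a ribosomal protein, had the smallest p of the related genes in both comparisons. It had 310 to 558 normalized counts (median 382) in WT lean and 469 to 1155 (median 721) in KO lean mice, for a log2 fold change of 0.84 (SE 0.18, BH-adjusted p = 0.0347). In the other comparison it fell from 515 to 1272 (median 795) in KO lean to 264 to 669 (median 373) in KO obese mice, for a log2 fold change of -0.92 (SE 0.23, BH-adjusted p = 0.0175), and still passed with shared numbers as a block (adjusted p = 0.0938), while the rise in KO lean mice did not (adjusted p = 0.139). The shuttle factors Ubqln1 and Ubqln2, which carry ubiquitinated proteins to the proteasome, fell in KO lean mice (-0.35 and -0.47, adjusted p = 0.0634 and 0.0681). In KO obese against KO lean mice 11 of 38 related genes passed (28.9%, near the 24.1% of all genes), 5 higher (Nfe2l2, Uba6, Ubqln2, Ube3c and Usp14) and 6 lower (Psmg3, Psmg4, Shfm1, Ubb, Rps27a and Nploc4).

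Nfe2l1, the regulator of the subunit genes, did not pass in KO lean against WT lean mice (log2 fold change -0.10, SE 0.12, adjusted p = 0.628) or in KO obese against KO lean mice (-0.18, SE 0.11, BH-adjusted p = 0.285). In WT mice it fell with the high fat diet, from 4574 to 6548 (median 5792) in WT lean to 3297 to 4910 (median 4129) in WT obese mice, for a log2 fold change of -0.43 (SE 0.12, BH-adjusted p = 0.0504, or 0.198 with shared numbers as a block), in a comparison where 1 member rose and 1 fell. Nploc4, a cofactor of the p97 unfoldase, fell there too (-0.29, SE 0.08, BH-adjusted p = 0.0626).

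**Figure D5:**
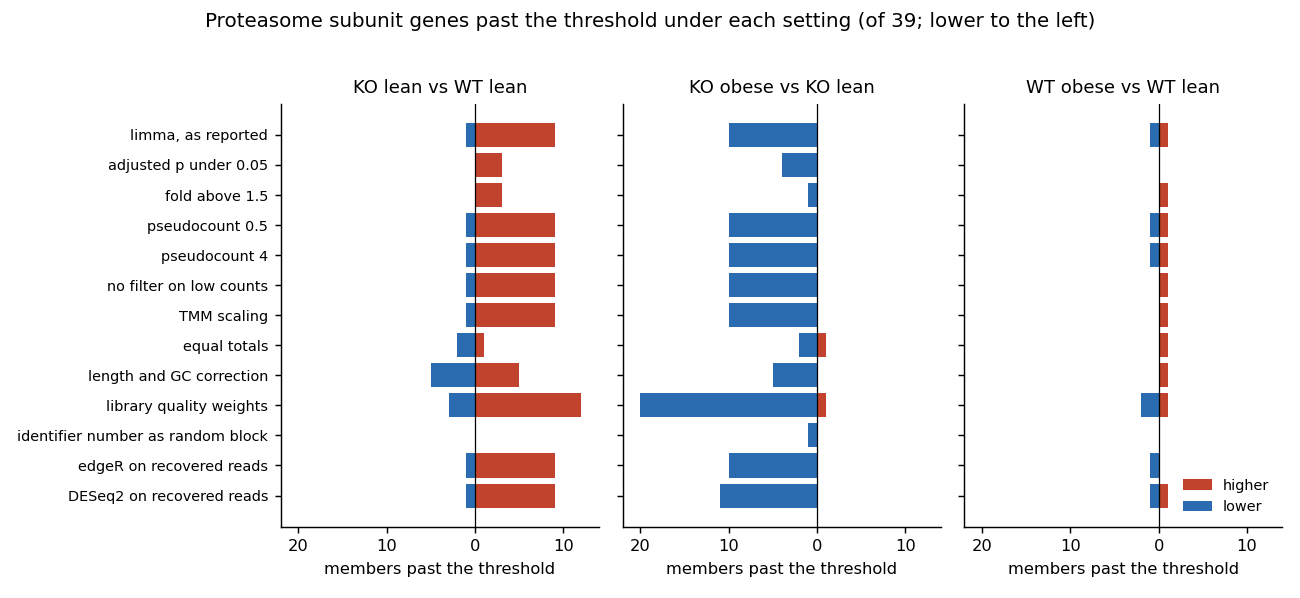
Members past the threshold, higher to the right and lower to the left, under the reported limma test and 12 other settings, for 3 comparisons. In KO lean vs WT lean mice the count is 10 as reported (25.6%, against 16.3% of all genes) and 3 at an adjusted p under 0.05 (7.69%, against 5.51%). It is 3 with equal totals (7.69%, against 16.5%) and 0 with shared identifier numbers as a random block (against 0.023%). In KO obese vs KO lean mice it runs from 1 with the block (2.56%, against 7.44%) to 21 with library quality weights (53.8%, against 40.4%).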

How the data were processed

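RNA-seq of 42 mouse livers was analysed. Per the labels, libraries came from a TruSeq stranded total RNA kit. The authors aligned read pairs to mm10 with Bowtie2, which does not split reads over introns and so undercounts reads across exon junctions, counted pairs with featureCounts, and divided counts by DESeq2 size factors per comparison. Neither versions nor annotation nor strandedness was given in the sources used here. The deposited signal values are these normalized counts, comparable within a table only. Columns with the authors' fold changes and p-values were not used. Whole reads were recovered for 100% of values within 0.1 reads, with 0 reads differing between tables. Depth was 15992525 to 43841120 reads (median 24298289), which limits precision for genes with few reads such as Psma8.

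Groups followed the labels. Each comparison (7 against 7 mice) was tested with limma 3.58.1 (lmFit, eBayes with trend, R 4.3.3, two-sided) after adding 1 and taking log2. Genes needed a mean normalized count of at least 5, p-values were BH-adjusted over all genes tested, and a call required an adjusted p under 0.1 and no minimum fold change. The log2(normalized count + 1) scale understates changes of low genes. Interactions used 28 libraries, with every fold change kept inside the table it came from. Alternatives were pseudocounts of 0.5 and 4, no filter, TMM scaling, equal totals, a loess correction for length and GC content (span 0.3), library quality weights, mice sharing an identifier number as a random block, a threshold of 0.05, a fold change above 1.5, edgeR 4.0.16 (quasi-likelihood) and DESeq2 1.42.0 (Wald, no shrinkage) on recovered reads, and leaving out each mouse. An adjusted p left empty by DESeq2 was kept empty. Scripts were tested on simulated data with 200 changed genes. Coordinates and exon lengths came from GENCODE M21 (GRCm38, 98.5% of names matched) and promoters from RefSeq on GRCm38.p6. Named with values were, per comparison, the member of each role with the smallest p, Psmb5, Psmb6 and Psmb7, members called with a fold change above 1.5, and related genes called, with Nfe2l1, Psmb8, Psmb9, Psmb10 and Pomp. Further members called at an adjusted p under 0.1, Psma3 and Psmd1 were named after their values were seen. The members and lists were chosen with earlier results of these data known. Labels do not say whether mice share litters, and p-values measure the spread between these mice.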

Additional observations from a re-analysis of the deposited data

Results flagged for a closer look

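In groups of 7 mice, a mouse was singled out where its gap to the nearest other mouse, relative to the group's range, exceeded the critical value of Dixon's test. This held in 17 of 226 groups of named genes and mouse medians checked. Chance gives about 1 in 20 only for independent groups of normally distributed values. The counts were tested without taking logs, and every mouse singled out was the highest of its group. That rate is therefore no firm reference here. Several of the 17 repeat the same mouse in different tables, and all values are normalized counts. Psmb6 in WT obese mouse 27-2L was 1055, 1165 and 1238 in the tables with WT lean, KO obese and WT obese+RvE1 mice, against next values of 860, 952 and 1015. Psmb7 in the same mouse was 1152, 1272 and 1351, and Pomp was 1627, 1797 and 1909. Psmd9 in KO obese mouse 23L was 1519 and 1457 in the tables with KO lean and WT obese mice, with next values of 979 and 937. Psma8 in WT lean mouse 8RL was 27.9 and 29.0 in the tables with WT obese and KO lean mice, with next values of 12.2 and 12.7. Psmb10 in KO lean mouse 20L was 414 and 375 in the tables with KO obese and WT lean mice. Nploc4 in WT obese mouse 22L was 2078, and Nfe2l1 in WT obese+RvE1 mouse 30R was 7354.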

How the results depend on the processing

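Scaling to equal totals shifted the median of all genes by 0.14 in KO obese vs KO lean and by -0.12 in KO lean vs WT lean mice. The members' medians became -0.0345 and -0.0170, which relative to those shifts is -0.18 and 0.10, and 3 members passed in each, 1 higher and 2 lower, while the split over all genes became 2555 higher and 628 lower, and 392 higher and 1753 lower, against 1704 and 1718, and 1042 and 1081, as reported. With mice of a shared number as a random block 0 members passed in KO lean vs WT lean, 1 in KO obese vs KO lean and 0 in WT obese vs WT lean mice. Of all genes 0.023%, 7.44% and 1.99% passed in these comparisons. Whether the numbers pair mice could not be checked, since nearly all lie within 1 group. At an adjusted p under 0.05 there were 3 members (7.69%, against 5.51% of all genes), 4 (10.3%, against 14.5%) and 0 (against 3.30%). With a fold change above 1.5 there were 3 (7.69%, against 6.65%), 1 (2.56%, against 10.4%) and 1 (2.56%, against 3.80%). The length and GC correction gave 5 in KO obese vs KO lean (12.8%, against 22.1% of all genes, median -0.0498) and 1 in WT obese vs WT lean (2.56%, against 7.14%). The median for the interaction of diet and genotype was -0.0292. In KO lean vs WT lean the correction gave 10 (25.6%, against 11.7%), 5 higher and 5 lower. Library quality weights gave 21 (53.8%, against 40.4% of all genes) in KO obese vs KO lean, 15 (38.5%, against 33.0%) in KO lean vs WT lean and 12 (30.8%, against 18.4%) in the interaction of diet and genotype, and DESeq2 gave 4 (10.3%, against 6.64%) in that interaction. In WT obese vs WT lean mice 1 member (2.56%) passed with no filter, TMM scaling, equal totals or edgeR. Of all genes 5.48%, 6.32%, 3.64% and 6.41% passed under these settings. The call lost was Psma8 under edgeR and Psmd11 under the others. The cause was not tested. The other settings left counts within 1.5 times those reported.

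With 1 mouse left out in turn, members called ranged from 0 to 11 in KO lean vs WT lean (medians 0.08 to 0.15), from 4 to 13 in KO obese vs KO lean (-0.22 to -0.13) and from 0 to 3 in WT obese vs WT lean (-0.04 to 0.05). They stayed at 0 in KO obese vs WT obese (-0.08 to -0.02), WT obese+RvE1 vs WT obese (-0.02 to 0.11) and KO obese+RvE1 vs KO obese (-0.02 to 0.08). In KO lean vs WT lean, 0 were left without WT lean mouse 26R or KO lean mouse 9L, 1 without WT lean mouse 21L, and 5 or 6 without KO lean mouse 20L, 14RL or 20-2L. In KO obese vs KO lean 4 were left without 9L, 5 without KO obese mouse 10R or 31R, and 6 without 14RL. In WT obese vs WT lean mice 0 or 1 were left without 11 of the 14 mice. Without all mice of identifier number 9, 21 or 26, 0 members passed in KO lean vs WT lean, and without number 14, 6. The share of all genes called in the fits that left out mice is not given here. These counts thus do not show whether the members lost calls more or less often than other genes.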
